A study of Mus musculus with 12 samples.

Results

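The mammalian clock genes studied here were 10 transcripts, Nr1d1, Nr1d2, Dbp, Tef, Per1, Per2, Per3, Arntl, Clock and Bhlhe41, picked by symbol from the 19376 rows of an expression table of mouse spleen. All 10 were found, and all 10 passed the filter on low counts that left 15079 genes for testing. RNA was sequenced in 12 libraries of spleen from mice with the strain label IRC, 3 in each of 4 groups, and the labels leave unsaid if each library is 1 animal. Controls received neither agent. One group received alginate oligosaccharides (AOS), short chains cut from a seaweed polysaccharide, at 10 mg/kg over 5 weeks. Another received busulfan, an alkylating drug that kills dividing blood cell precursors, as 1 dose of 40 mg/kg. The last received that dose of busulfan and then the same course of AOS. Age, sex, the hour at which the spleens were taken and the light schedule do not appear in the labels, and the part of the hour in the results was not tested.

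The clock is a feedback loop of transcription. CLOCK and BMAL1, the product of Arntl, bind E-boxes as a pair and switch on the Per and Cry genes, whose proteins return to the nucleus and block that pair. A second loop runs through the nuclear receptors REV-ERBα and REV-ERBβ, encoded by Nr1d1 and Nr1d2, which are switched on by the same pair and repress Arntl. DBP and TEF carry the rhythm to other genes through D-boxes, and DEC2, encoded by Bhlhe41, competes at E-boxes as a repressor. In spleen, as in other organs, the transcripts of most of these genes rise and fall over the day, with Arntl near the opposite phase to Nr1d1 and Dbp.

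The promoters of Nr1d1, Per1 and Bhlhe41 are shown as those of genes that differed between single groups at an adjusted p under 0.05 and held a motif. Nr1d2, Dbp and Arntl differed too, but the windows searched held no motif. Per2 also differed, but had no promoter entry to search. Tef held an E-box but passed only for busulfan averaged over AOS, and is not shown. The promoter of Per3 is shown because it held a clock motif at more than 1 place while its transcript passed no test. Each line is the 250 bases before an annotated start, in the direction of transcription, from RefSeq on GRCm38.p6, with motif letters in capitals.
Nr1d1, E′-box in capitals on the opposite strand (chr11:98775378-98775627, minus strand): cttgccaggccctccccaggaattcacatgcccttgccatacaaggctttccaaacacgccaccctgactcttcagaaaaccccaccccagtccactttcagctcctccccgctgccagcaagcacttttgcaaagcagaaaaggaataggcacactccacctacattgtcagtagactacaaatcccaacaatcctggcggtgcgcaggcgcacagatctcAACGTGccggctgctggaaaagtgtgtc
Per1, E-box in capitals (chr11:69098699-69098948, plus strand, a start inside the annotated gene): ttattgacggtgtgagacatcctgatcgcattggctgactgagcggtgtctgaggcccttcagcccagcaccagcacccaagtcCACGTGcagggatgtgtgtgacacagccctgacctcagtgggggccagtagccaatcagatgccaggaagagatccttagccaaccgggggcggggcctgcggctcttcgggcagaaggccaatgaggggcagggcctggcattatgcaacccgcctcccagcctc
Bhlhe41, E-box in capitals (chr6:145865421-145865670, minus strand): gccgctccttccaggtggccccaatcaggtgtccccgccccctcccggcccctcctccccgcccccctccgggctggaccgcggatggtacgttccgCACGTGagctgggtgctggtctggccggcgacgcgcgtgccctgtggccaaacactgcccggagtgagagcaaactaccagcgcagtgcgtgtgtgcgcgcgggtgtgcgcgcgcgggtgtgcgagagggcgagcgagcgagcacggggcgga
Per3, D-boxes in capitals (chr4:151044666-151044915, minus strand): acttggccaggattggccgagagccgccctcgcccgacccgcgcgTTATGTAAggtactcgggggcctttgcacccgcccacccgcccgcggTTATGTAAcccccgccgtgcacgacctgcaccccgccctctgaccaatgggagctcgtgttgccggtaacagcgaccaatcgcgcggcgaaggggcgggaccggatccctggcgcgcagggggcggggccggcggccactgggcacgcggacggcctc

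Both strands were searched for the E-box CACGTG, the E′-box CACGTT, the D-box as TTATGTAA or TTACGTAA, the core of the ROR element as TAGGTCA or TGGGTCA, and the cAMP response element TGACGTCA. Counting from the start, the Nr1d1 match lay at -28 to -23, the Per1 match at -166 to -161 and the Bhlhe41 match at -153 to -148. Per3 had matches at -205 to -198 and at -158 to -151. Tef had an E-box in each of its windows, at -127 to -122 and at -138 to -133. The windows of Nr1d2, Dbp, Arntl and Clock and the other window of Per1 held none of these letters. Per2 had no entry in the table and was not searched. Of all 32851 promoter windows in the table, 6.02% held the E-box, 3.85% the E′-box, 0.931% the D-box, 5.38% the ROR core and 1.55% the cAMP response element, so a match says only that the letters are there.

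Libraries held 15051300 to 16241884 counts, and the limit set by a count of 0, taken as 3 counts, was 0.185 to 0.200 CPM (counts scaled to a common library size). Every marker on the lists for B cells, T cells, neutrophils, red pulp macrophages and erythroid cells was above 0 in all 12 libraries, as spleen should show. Summed markers of the exocrine pancreas, 12 genes, reached 2519 to 41279 CPM in the AOS libraries against 17.2 to 2165 CPM in the other 9. Summed fat cell markers, 8 genes, stood at 492.8 CPM in control library 1 against at most 90.3 CPM elsewhere. AOS library 2, with the highest pancreatic sum, and control library 1 therefore stood apart, and counts without both are given with the comparisons. In whole tissue, fewer cells of a type and less RNA per cell cannot be told apart.

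Per length of transcript, Tef led the clock genes of control spleen at 10.8 ± 0.79 FPKM (mean ± SD, n = 3 here and below), followed by Nr1d2 at 8.64 ± 0.74 FPKM and Arntl at 8.08 ± 0.90 FPKM. Nr1d2 and Arntl overlapped between libraries, whereas Tef lay above both. Per1, Dbp and Clock formed a middle group at 6.29 ± 0.66, 6.08 ± 0.74 and 5.25 ± 0.18 FPKM, within which neighbours overlapped. Bhlhe41 at 3.27 ± 0.24 and Per2 at 2.77 ± 0.30 FPKM overlapped each other, and below them Nr1d1 at 1.45 ± 0.20 and Per3 at 1.04 ± 0.14 FPKM were each apart from their neighbours. After busulfan alone, Per1 stood first at 11.2 ± 1.66 FPKM, apart from Arntl, the next gene. After busulfan with AOS, Nr1d2 at 10.9 ± 1.79 FPKM was first and overlapped Tef at 9.27 ± 0.70 FPKM, and Nr1d1 had moved from the ninth place to the fifth at 5.997 ± 1.44 FPKM. Per3 was last in all 4 groups.

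**Figure D1:**
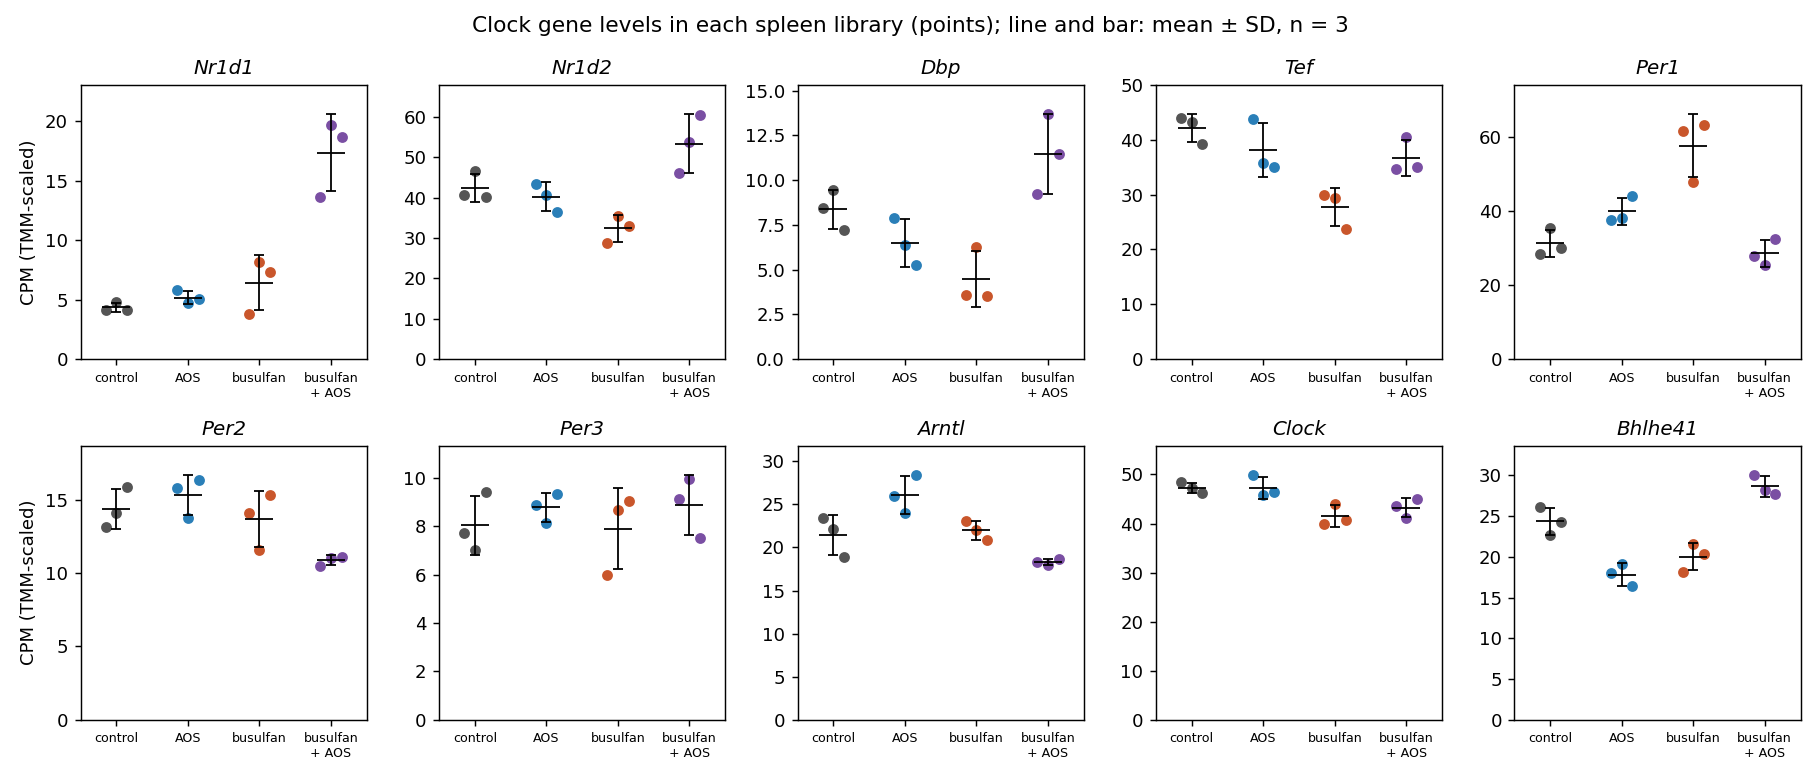
Level of each of the 10 clock genes in every spleen library, in CPM on TMM-scaled library sizes (y axis, from 0), by treatment group (x axis). Points are libraries, the line is the mean and the bar the SD of 3 libraries. Nr1d1 is at 13.6 to 19.7 CPM after busulfan with AOS and at 3.77 to 8.15 CPM in the other 9 libraries, and Per1 is highest after busulfan alone.

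Nr1d1, the gene of REV-ERBα, was the clock gene with the largest rise. It stood at 4.15, 4.78 and 4.09 CPM in the control libraries, at 5.76, 4.70 and 5.04 CPM with AOS, at 3.77, 8.15 and 7.28 CPM with busulfan, and at 13.6, 19.7 and 18.7 CPM with busulfan and AOS. All 3 libraries given both agents lay above the other 9, while busulfan alone overlapped the controls because its first library was the lowest of the 12. Busulfan with AOS raised Nr1d1 3.35-fold over AOS alone (log2 fold change 1.74 ± 0.25 SE, edgeR adjusted p = 0.0121), 2.71-fold over busulfan alone (1.44 ± 0.25, edgeR adjusted p = 0.0190) and 3.99-fold over control (2.00 ± 0.25, edgeR adjusted p = 0.0151). Averaged over AOS, busulfan raised it by 1.15 ± 0.18 on the log2 scale (edgeR adjusted p = 0.0159). Busulfan alone against control gave 0.56 ± 0.25 on the log2 scale and did not pass (edgeR adjusted p = 0.245). The log2 fold change against AOS ran from 1.37 to 1.89 over 22 alternative analyses, whose adjusted p ran from 4.1e-08 to 0.0585. It missed the threshold without library 2 of the group given both agents (edgeR adjusted p = 0.0585), and without control library 1 and AOS library 2 together (edgeR adjusted p = 0.0559). Against busulfan, leaving out library 2 or 3 of the group given both agents ended the call (edgeR adjusted p = 0.0675 and 0.0650), as did fitting only the groups compared (0.0722). Against control, the call ended without control library 1 or 2 (edgeR adjusted p = 0.0570 and 0.0579) or without library 2 or 3 of the group given both agents (edgeR adjusted p = 0.0611 and 0.0587), and in the fit of only the groups compared (0.0517). Without control library 1 and AOS library 2 together, edgeR adjusted p was 0.0784 against control and 0.0651 for busulfan averaged over AOS. With both left out, 0% of all genes were called in busulfan with AOS against control and 0.0592% for busulfan averaged over AOS.

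The paralogue Nr1d2, for REV-ERBβ, had higher levels and smaller differences. It stood at 40.6, 46.5 and 40.2 CPM in controls, at 43.5, 40.8 and 36.4 CPM with AOS, at 28.8, 35.5 and 33.0 CPM with busulfan and at 46.0, 53.7 and 60.5 CPM with both. The busulfan libraries lay below all controls, and those given both agents lay above all of the busulfan and AOS libraries. Nr1d2 rose 1.65-fold from busulfan to busulfan with AOS (log2 fold change 0.72 ± 0.12, edgeR adjusted p = 0.0148). The values of -0.39 ± 0.12 for busulfan against control and 0.41 ± 0.12 for busulfan with AOS against AOS did not pass (edgeR adjusted p = 0.114 and 0.0631). The call against busulfan ended without busulfan library 1 (edgeR adjusted p = 0.0671) and without library 2 or 3 of the group given both agents (0.0556 and 0.0576), and in the fit of only the groups compared (0.0590), in a range of 8.0e-06 to 0.0671 over 22 alternatives.

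Dbp, an activator at D-boxes and a classic output of the clock, stood at 8.43, 9.43 and 7.23 CPM in controls and at 7.88, 6.36 and 5.23 CPM with AOS. It was at 3.58, 6.29 and 3.55 CPM with busulfan and at 9.22, 13.7 and 11.5 CPM with both. The busulfan libraries lay below every control, and the group given both agents lay above every AOS and busulfan library but overlapped the controls. Dbp rose 2.56-fold from busulfan to busulfan with AOS (log2 fold change 1.36 ± 0.25, edgeR adjusted p = 0.0235). Against control, busulfan gave -0.90 ± 0.25 (edgeR adjusted p = 0.0943), and busulfan with AOS against AOS gave 0.82 ± 0.25 (edgeR adjusted p = 0.0716), and neither passed. The call against busulfan ended without busulfan library 1 or 3 (edgeR adjusted p = 0.0992 and 0.0596), without library 1, 2 or 3 of the group given both agents (0.0551, 0.0740 and 0.0698), and without control library 1 and AOS library 2 together (0.0540), and in the fit of only the groups compared (0.0709), in a range of 5.4e-05 to 0.0992 over 22 alternatives. Without busulfan library 2, the highest of its group, the value of busulfan against control was -1.23 (edgeR adjusted p = 0.0263, in a range of 0.0206 to 0.280), and that of busulfan with AOS against AOS passed too (edgeR adjusted p = 0.0468, in a range of 0.0208 to 0.236).

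Tef, a relative of Dbp that binds the same D-boxes, stood at 43.9, 43.2 and 39.2 CPM in controls, at 43.8, 35.7 and 35.0 CPM with AOS, at 30.0, 29.4 and 23.7 CPM with busulfan and at 34.7, 40.5 and 35.0 CPM with both. The busulfan libraries were the lowest 3 of the 12. Averaged over AOS, busulfan lowered Tef by a log2 fold change of -0.33 ± 0.08 (edgeR adjusted p = 0.0392). Busulfan alone against control gave -0.60 ± 0.12 (edgeR adjusted p = 0.0566), and busulfan with AOS against AOS gave -0.05 ± 0.12 (edgeR adjusted p = 0.812). The averaged value passed in 10 of 21 alternatives, whose adjusted p ran from 0.0057 to 0.103. It did not pass without control library 1 (edgeR adjusted p = 0.0861) or 2 (0.0930), AOS library 1 (0.0866) or 2 (0.0527), busulfan library 3 (0.0791), library 1, 2 or 3 of the group given both agents (0.0735, 0.0660 and 0.0705), or control library 1 and AOS library 2 together (0.103), nor with limma at either pseudocount (0.0524 and 0.0543). Busulfan alone against control passed in 3 of 22 alternatives, among them the fit without busulfan library 2 (edgeR adjusted p = 0.0354, in a range of 0.00039 to 0.184).

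Per1, a repressor of the CLOCK and BMAL1 pair that glucocorticoids also switch on directly, was highest after busulfan alone. It stood at 28.5, 35.4 and 29.9 CPM in controls, at 37.7, 38.0 and 44.1 CPM with AOS, at 61.7, 47.8 and 63.4 CPM with busulfan and at 27.9, 25.3 and 32.4 CPM with both. The 3 busulfan libraries were the highest of the 12, and the group given both agents lay below the AOS group and overlapped the controls. Busulfan raised Per1 1.84-fold over control (log2 fold change 0.88 ± 0.13, edgeR adjusted p = 0.0299). From busulfan to busulfan with AOS it fell by 1.01 ± 0.13 on the log2 scale (edgeR adjusted p = 0.00824), and this call held in all 22 alternatives, with adjusted p from 3.9e-09 to 0.0485. With AOS as the baseline, busulfan gave -0.48 ± 0.13 (edgeR adjusted p = 0.0579). The rise over control passed in 9 of 22 alternatives, with a log2 fold change of 0.74 to 1.00 and an adjusted p of 1.2e-06 to 0.183. It did not pass without control library 1, 2 or 3 (edgeR adjusted p = 0.0969, 0.120 and 0.0501), AOS library 1 or 2 (0.0552 and 0.0592), busulfan library 1 or 3 (0.134 and 0.102) or library 1 of the group given both agents (0.0643), nor without control library 1 and AOS library 2 together (0.147). It did not pass either with limma on log2(FPKM + 0.1) or log2(FPKM + 1) (limma adjusted p = 0.0556 and 0.0612), in the fit of only the groups compared (edgeR adjusted p = 0.183) or with the replicate number as a block. Of all genes tested, 0 were called in busulfan against control without control library 1 or 2 or without AOS library 1. The same held without control library 1 and AOS library 2 together and in the fit of only the groups compared. Without busulfan library 2, the value with AOS as the baseline passed (edgeR adjusted p = 0.0467, in a range of 0.0169 to 0.205).

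The other Per genes moved less. Per2, the partner of PER1 in the repressor complex, stood at 13.2, 14.1 and 15.9 CPM in controls, at 15.8, 13.8 and 16.4 CPM with AOS, at 14.1, 11.6 and 15.3 CPM with busulfan and at 10.48, 11.05 and 11.10 CPM with both. The group given both agents lay below all other libraries. Per2 fell from AOS to busulfan with AOS by 0.49 ± 0.12 on the log2 scale (edgeR adjusted p = 0.0433). That call passed in 7 of 22 alternatives, with adjusted p from 0.0136 to 0.138. It ended on leaving out control library 1 (edgeR adjusted p = 0.0578) or 2 (0.0583), AOS library 1 (0.119), 2 (0.0565) or 3 (0.113), busulfan library 1 (0.0544), library 1 (0.103), 2 (0.138) or 3 (0.0894) of the group given both agents, or control library 1 and AOS library 2 together (0.0712). It also ended with no filter on low counts (edgeR adjusted p = 0.0559), with scaling by library totals (0.0558), in the fit of only the groups compared (0.0609) and with limma at either pseudocount (limma adjusted p = 0.0920 and 0.0893). Per3, a Per family member with a lesser part in the loop, stood at 6.003 to 9.96 CPM in the 12 libraries and overlapped between groups in all 5 pairs compared, with log2 fold changes from -0.03 ± 0.18 to 0.17 ± 0.18. The ratio of Per1 to Per2 in FPKM was 1.93 to 2.68 in controls, 2.54 to 2.94 with AOS, 4.39 to 4.66 with busulfan and 2.45 to 3.10 with both, so that the busulfan libraries lay apart from the other 9.

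Bhlhe41, for the E-box repressor DEC2, stood at 26.1, 22.7 and 24.2 CPM in controls, at 18.1, 19.1 and 16.4 CPM with AOS, at 18.2, 21.6 and 20.4 CPM with busulfan and at 30.0, 28.2 and 27.7 CPM with both. The group given both agents lay above the other 9 libraries, and each agent alone lay below the controls. Busulfan with AOS raised Bhlhe41 1.61-fold over AOS (log2 fold change 0.68 ± 0.09, edgeR adjusted p = 0.00976), and this held in all 22 alternatives, with adjusted p from 2.6e-07 to 0.0402. It raised it 1.43-fold over busulfan (0.51 ± 0.09, edgeR adjusted p = 0.0204), a call that ended without busulfan library 1 (edgeR adjusted p = 0.0809) and without library 1, 2 or 3 of the group given both agents (0.0760, 0.0616 and 0.0606), and in the fit of only the groups compared (0.0659), in a range of 0.00029 to 0.0809. AOS alone against control gave -0.45 ± 0.09 (edgeR adjusted p = 0.449), and busulfan against control gave -0.28 ± 0.09 (edgeR adjusted p = 0.131), and neither passed.

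Arntl, for the activator BMAL1, stood at 23.4, 22.1 and 18.9 CPM in controls, at 25.9, 24.0 and 28.4 CPM with AOS, at 23.1, 22.0 and 20.8 CPM with busulfan and at 18.3, 17.9 and 18.7 CPM with both. The AOS libraries were the highest of the 12 and those given both agents the lowest. Arntl fell from AOS to busulfan with AOS by 0.51 ± 0.10 on the log2 scale (edgeR adjusted p = 0.0206), while busulfan against control gave 0.03 ± 0.10 (edgeR adjusted p = 0.869). That fall passed in 16 of 22 alternatives, with adjusted p from 0.00056 to 0.0963, and missed the threshold without AOS library 1 or 3 (edgeR adjusted p = 0.0590 and 0.0608), without library 1, 2 or 3 of the group given both agents (0.0558, 0.0963 and 0.0512), or without control library 1 and AOS library 2 together (0.0559). Clock, the partner of BMAL1, stood at 47.3 ± 1.05 CPM in controls, 47.3 ± 2.23 with AOS, 41.5 ± 2.19 with busulfan and 43.2 ± 1.94 CPM with both. The busulfan libraries lay below the controls, but no comparison of Clock passed, the averaged busulfan value being -0.16 ± 0.04 on the log2 scale (edgeR adjusted p = 0.0520). Without busulfan library 2 the averaged Clock value passed (edgeR adjusted p = 0.0434).

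As a description of the pair of opposite phase, the ratio of Nr1d1 to Arntl in FPKM was 0.156, 0.199 and 0.184 in controls and 0.200, 0.180 and 0.160 with AOS. It was 0.163, 0.333 and 0.327 with busulfan and 0.663, 1.07 and 0.990 with both. The group given both agents lay above the other 9 libraries, and busulfan library 1 lay within the range of the controls.

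Counted over the comparisons, 1 of the 10 clock genes was called at an edgeR adjusted p under 0.05 in busulfan against control (Per1, higher), where 0.471% of all genes tested were called. In busulfan with AOS against AOS 4 were called, 2 higher and 2 lower, against 5.81% of all genes. In busulfan with AOS against busulfan 5 were called, 4 higher and 1 lower, against 3.02% of all genes. Busulfan with AOS against control gave 1, Nr1d1, against 0.875%, and busulfan averaged over AOS gave 2, Nr1d1 and Tef, against 8.23%. AOS against control called none of them, and 0% of all genes in edgeR, although 894 genes had an unadjusted p under 0.05 and DESeq2 called 70, Bhlhe41 among them. AOS averaged over busulfan also called none and 0% of all genes in edgeR, with 1818 at an unadjusted p under 0.05 and 231 called by DESeq2. These comparisons share libraries, so their counts are not independent of each other. The clock genes were chosen with earlier results of these data known. The shares of all genes are therefore given for scale, and no enrichment was tested.

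Leaving out 1 library at a time, the number of clock genes called ran from 0 to 3 in busulfan against control, from 1 to 6 in busulfan with AOS against AOS, from 1 to 5 in busulfan with AOS against busulfan and from 0 to 1 in busulfan with AOS against control. In the same order, the share of all genes called ran from 0% to 3.08%, 0.183% to 5.98%, 0.295% to 3.48% and 0.0197% to 1.13%. Without control library 1 and AOS library 2 together the clock gene counts were 0, 1, 4 and 0, beside 0%, 0.329%, 1.14% and 0% of all genes. Groups that did not overlap were found for 6 of the 10 in busulfan against control (5 of them lower), where 23.6% of all genes did not overlap, and for 8 of 10 in busulfan with AOS against AOS, where 31.7% did not. The like counts were 3 of 10 in AOS against control beside 10.8% of all genes, 8 of 10 in busulfan with AOS against busulfan beside 27.3%, and 5 of 10 in busulfan with AOS against control beside 23% of all genes. The median log2 fold change of the 10 genes was -0.13 in busulfan against control and -0.02 in busulfan with AOS against AOS, where the medians of all genes were -0.01 and 0.00.

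Whether the response to busulfan differed between mice with and without AOS was asked by the interaction term. It was called for Per1, whose response was lower in mice given AOS by 1.37 on the log2 scale (value -1.37 ± 0.19, edgeR adjusted p = 0.0156), and for Bhlhe41, whose response was higher there (0.97 ± 0.13, edgeR adjusted p = 0.0149). These were 2 of the 10 clock genes, beside 0.484% of all genes. For Dbp the difference was 1.72 ± 0.35 and for Nr1d2 0.80 ± 0.16, and neither passed (edgeR adjusted p = 0.0639 and 0.0657). Nr1d1 at 1.18 ± 0.36, Tef at 0.55 ± 0.16 and Arntl at -0.55 ± 0.14 did not pass either (edgeR adjusted p = 0.135, 0.135 and 0.0931). The Per1 term lost its call without busulfan library 1 (edgeR adjusted p = 0.0507) and without library 1 or 2 of the group given both agents (0.0553 and 0.0563), in a range of 5.9e-08 to 0.0901 over 21 alternatives. The Bhlhe41 term lost it without library 1 or 2 of the group given both agents (edgeR adjusted p = 0.0503 and 0.0563), in a range of 5.7e-07 to 0.0706, and both highest values came without control library 1 and AOS library 2 together. The Dbp term passed without busulfan library 2 (edgeR adjusted p = 0.0280, in a range of 0.00075 to 0.162).

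**Figure D2:**
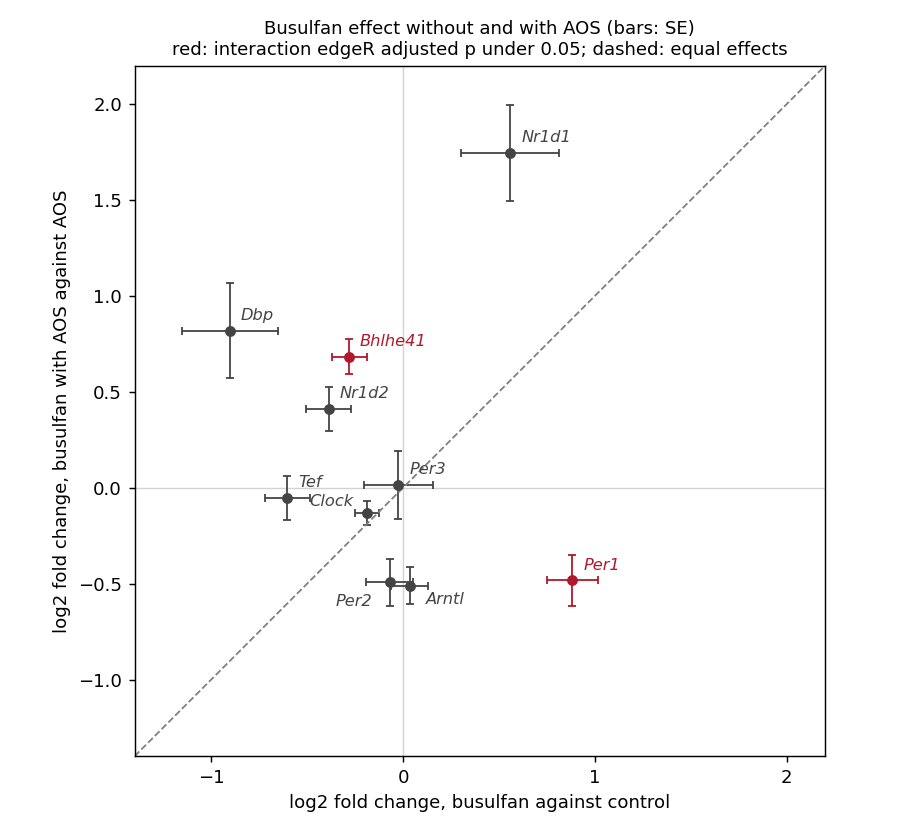
Log2 fold change of each clock gene with busulfan in mice without AOS (x axis, busulfan against control) and with AOS (y axis, busulfan with AOS against AOS). Points are genes, bars are the SE of the fit and the dashed line marks equal effects. Per1 and Bhlhe41, in red, are the genes whose interaction passed, at -1.37 and 0.97.

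Among 11 further clock factors, which include the Cry repressors, the Ror activators and the BMAL1 relatives, 2 were called lower in busulfan with AOS against AOS and none higher. There 5.81% of all genes were called. Cry1, the partner of the PER proteins in repression, fell from 24.6 ± 2.17 to 15.6 ± 1.76 CPM (log2 fold change -0.65 ± 0.12, edgeR adjusted p = 0.0192). Ciart, a repressor of the CLOCK and BMAL1 pair, fell from 3.44 ± 0.29 to 1.67 ± 0.33 CPM (-1.04 ± 0.22, edgeR adjusted p = 0.0281). The Cry1 call ended without AOS library 1 or 2 (edgeR adjusted p = 0.0606 and 0.0526) or without library 1 or 2 of the group given both agents (0.0567 and 0.0960), and without control library 1 and AOS library 2 together (0.0712), in a range of 0.00016 to 0.0960 over 22 alternatives. The Ciart call ended without any 1 library of the AOS group (edgeR adjusted p = 0.0666, 0.0685 and 0.0702) or of the group given both agents (0.0650, 0.0960 and 0.0807), without control library 1 and AOS library 2 together (0.0902) and in the fit of only the groups compared (0.0634), in a range of 0.0065 to 0.0960. Npas2, a relative of CLOCK, stood at 2.51 ± 0.52 and 1.51 ± 0.27 CPM and did not pass (edgeR adjusted p = 0.0859). In busulfan against control, 0 of the 11 passed, with a median log2 fold change of -0.15, and 0 passed in busulfan with AOS against busulfan. For busulfan averaged over AOS, Cry1 and Ciart were called lower (edgeR adjusted p = 0.0281 and 0.0425), beside 8.23% of all genes called. These averaged values passed in 13 and 9 of 21 alternatives.

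None of 8 clock kinases and ubiquitin ligases passed in any comparison. From AOS to busulfan with AOS, the kinase subunit Csnk2a1 gave a log2 fold change of -0.24 (edgeR adjusted p = 0.200) and the PER kinase Csnk1e gave -0.21 (edgeR adjusted p = 0.241). Of 3 genes driven by the clock, Wee1, a kinase that holds back mitosis, rose from 23.8 ± 2.05 CPM with AOS to 32.4 ± 1.71 CPM with both agents (0.45 ± 0.09, edgeR adjusted p = 0.0263). That call, too, ended without any 1 library of the AOS group (edgeR adjusted p = 0.0844, 0.0565 and 0.0548) or of the group given both agents (0.0671, 0.113 and 0.0547), without control library 1 and AOS library 2 together (0.0738) and in the fit of only the groups compared (0.0540), in a range of 0.0026 to 0.113. Wee1 was also called higher for busulfan averaged over AOS (edgeR adjusted p = 0.0168), where 8.23% of all genes were called. The averaged Wee1 value passed in 19 of 21 alternatives, with a log2 fold change of 0.34 to 0.44. Usp2, a deubiquitinase, stood at 1.59 ± 0.14 and 3.14 ± 0.23 CPM in those groups (0.98 ± 0.27, edgeR adjusted p = 0.0560) and was called for busulfan averaged over AOS (0.78 ± 0.19, edgeR adjusted p = 0.0347). The averaged Usp2 value passed in 11 of 21 alternatives, with a log2 fold change of 0.33 to 0.98. It missed the threshold without control library 2 (edgeR adjusted p = 0.0838), AOS library 1, 2 or 3 (0.0755, 0.0543 and 0.0593), busulfan library 2 or 3 (0.0551 and 0.0737) or library 1, 2 or 3 of the group given both agents (0.0631, 0.0781 and 0.0554), or without control library 1 and AOS library 2 together (0.0614), in a range of 0.0072 to 0.0838. With AOS as the baseline, Usp2 passed without control library 1 or 3 (edgeR adjusted p = 0.0383 and 0.0326). Nampt, which makes a precursor of NAD, gave 0.15 ± 0.15 (edgeR adjusted p = 0.564). Without AOS library 3 the Nampt value passed (edgeR adjusted p = 0.0499).

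**Figure D3:**
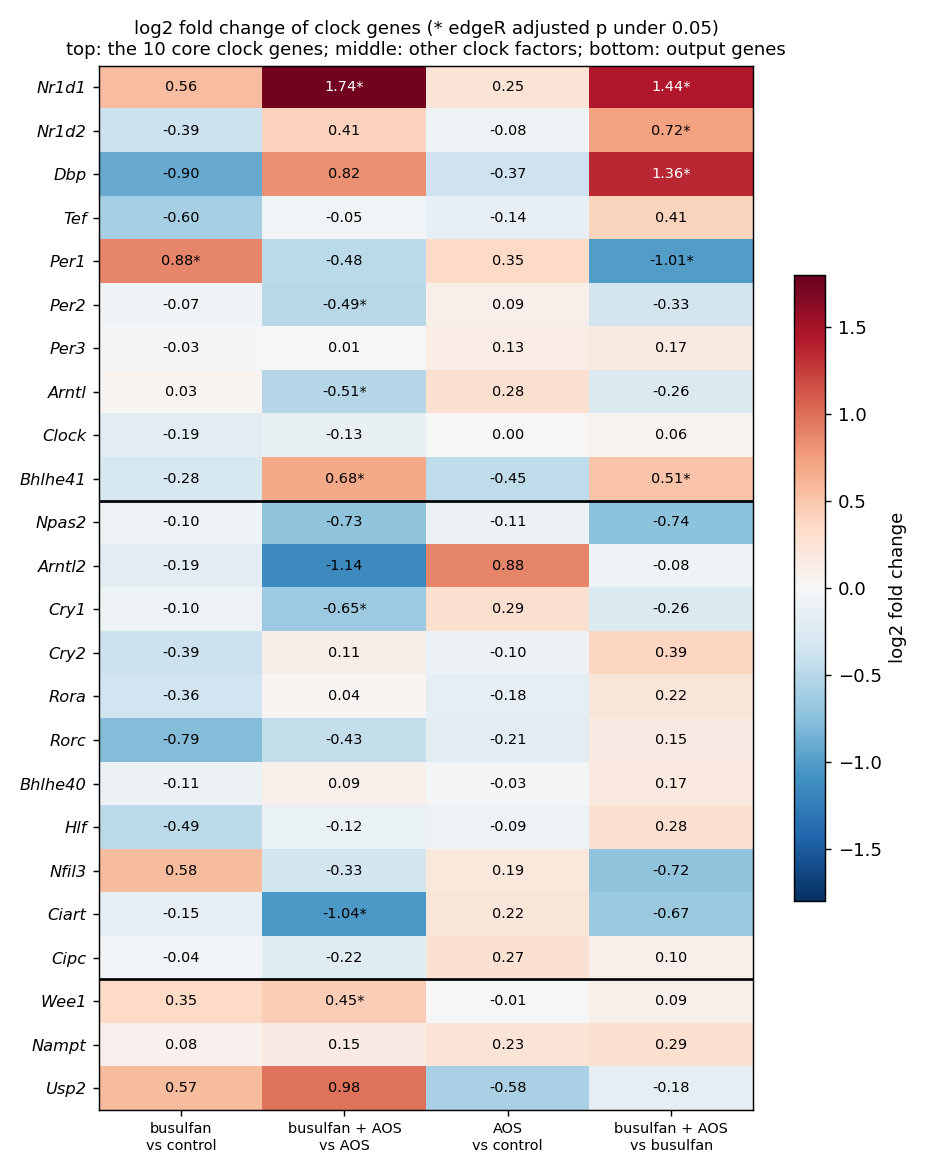
Log2 fold change (color, with the value printed) of the 10 clock genes and further clock genes in 4 comparisons of groups, with an asterisk where the edgeR adjusted p is under 0.05. Nr1d1 reaches 1.74 in busulfan with AOS against AOS, where Cry1 and Ciart are called at -0.65 and -1.04.

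Lists of transcripts that respond to temperature and stress hormones were measured in the same libraries, and members of each were called between groups in which clock genes differed. Summed over 12 heat shock genes, levels were 4299 to 7364 CPM in controls, 5167 to 7524 CPM with AOS, 5530 to 10744 CPM with busulfan and 2612 to 2883 CPM with both, so the group in which Nr1d1 was highest lay below the other 9 libraries, with at most 2 of the 12 genes at 0 in any of its libraries. Of these 12 genes, 5 were called lower in busulfan with AOS against AOS and 8 against busulfan, beside 5.81% and 3.02% of all genes called. Hsph1, a heat shock chaperone, stood at 221, 203 and 484 CPM in controls, at 253, 403 and 456 CPM with AOS, at 1005, 519 and 300.4 CPM with busulfan and at 79.6, 71.1 and 71.0 CPM with both. Busulfan library 1, which had the lowest Nr1d1 of the 12, had the highest Hsph1. Dnajb1, a co-chaperone, fell to 68.1 ± 7.47 CPM with both agents from 184 ± 37.5 CPM with AOS (log2 fold change -1.44 ± 0.34, edgeR adjusted p = 0.0382). The Dnajb1 call ended without control library 1 (edgeR adjusted p = 0.0544), AOS library 1, 2 or 3 (0.0670, 0.0851 and 0.0909), busulfan library 2 (0.0521) or library 1, 2 or 3 of the group given both agents (0.0897, 0.130 and 0.103), or without control library 1 and AOS library 2 together (0.107), in a range of 0.0057 to 0.130.

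The cold-inducible RNA-binding gene Cirbp moved the other way, at 33.7 ± 8.08 CPM in controls, 29.0 ± 8.12 with AOS, 22.0 ± 2.61 with busulfan and 65.3 ± 1.28 CPM with both. It rose over AOS by 1.17 ± 0.20 and over busulfan by 1.57 ± 0.21 on the log2 scale (edgeR adjusted p = 0.0166 and 0.00824). The rise over busulfan held in all 22 alternatives, and that over AOS missed the threshold without library 2 of the group given both agents (edgeR adjusted p = 0.0709, in a range of 3.6e-06 to 0.0709) and without control library 1 and AOS library 2 together (0.0670). Rbm3, of the same class, rose over busulfan by 0.58 ± 0.14 (edgeR adjusted p = 0.0482). The Rbm3 call passed in 10 of 22 alternatives, with a log2 fold change of 0.54 to 0.90, and ended without control library 1, 2 or 3 (edgeR adjusted p = 0.0662, 0.0646 and 0.0581), AOS library 1 (0.0684), busulfan library 1, 2 or 3 (0.159, 0.0734 and 0.106) or library 1, 2 or 3 of the group given both agents (0.144, 0.106 and 0.110), without control library 1 and AOS library 2 together (0.0506) or with no filter on low counts (0.0532), in a range of 0.0018 to 0.159. Its level over AOS gave 0.48 ± 0.14 (edgeR adjusted p = 0.0663). Without AOS library 2 that value passed (edgeR adjusted p = 0.0452).

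Summed over 8 genes that glucocorticoids induce, levels were 266 to 295 CPM in controls, 345 to 353 CPM with AOS, 387 to 450.0 CPM with busulfan and 218 to 246 CPM with both, with no overlap between groups. The sum does not speak for each gene: of the 8, 2 were called higher in busulfan against control (Errfi1 and Pdk4), 2 lower in busulfan with AOS against AOS (Tsc22d3 and Errfi1) and 3 lower in busulfan with AOS against busulfan (Tsc22d3, Errfi1 and Pdk4). In busulfan with AOS against control, 1 was called lower (Tsc22d3), while 4 had a positive and 4 a negative log2 fold change, with a median of -0.05. In the same order of comparisons, 0.471%, 5.81%, 3.02% and 0.875% of all genes were called. In busulfan against control, 0 genes were called without control library 1 or 2 or without AOS library 1. The same held in the fit of only the groups compared, so the Errfi1 and Pdk4 calls over control ended in each of these. The Per1 means stood in the order of the sums, lowest with both agents and highest with busulfan. Tsc22d3, for the hormone-induced protein GILZ, stood at 109 ± 11.4, 161 ± 2.03, 172 ± 24.3 and 63.2 ± 13.7 CPM in the same order of groups and fell from busulfan to busulfan with AOS by 1.45 ± 0.15 on the log2 scale (edgeR adjusted p = 0.00525). Its interaction term was -2.01 ± 0.21 (edgeR adjusted p = 0.00907). Both Tsc22d3 calls held in every alternative run. Fkbp5, another such gene, stood at 34.2 to 41.0 CPM as group means and passed no test. Of 8 immediate early genes, which mark recent stimulation or handling, none was called in any comparison. Summed neutrophil markers were 533 to 1012 CPM in controls, 802 to 1226 CPM with AOS, 1650 to 9095 CPM with busulfan and 749 to 2100 CPM with both, and summed liver markers were 8.35 to 14.5 CPM with both agents against 26.6 to 295 CPM in the other 9 libraries. For busulfan averaged over AOS, 5 of 7 B cell markers were called lower and 7 of 7 neutrophil markers higher, beside 8.23% of all genes called. Without control library 1 and AOS library 2 together, that comparison called 9 genes in all, 2 higher and 7 lower. Between single groups, 2 neutrophil markers were called higher in busulfan against control and 0 in busulfan with AOS against AOS. In the same order, 0 and 1 B cell markers were called lower, beside 0.471% and 5.81% of all genes. Summed B cell markers were 2608 to 3342 CPM in controls, 3180 to 3666 with AOS, 1896 to 2702 with busulfan and 2250 to 2843 CPM with both. No T cell, red pulp macrophage or erythroid marker was called in any comparison. The part of these genes and cell types in the clock gene differences was not tested.

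**Figure D4:**
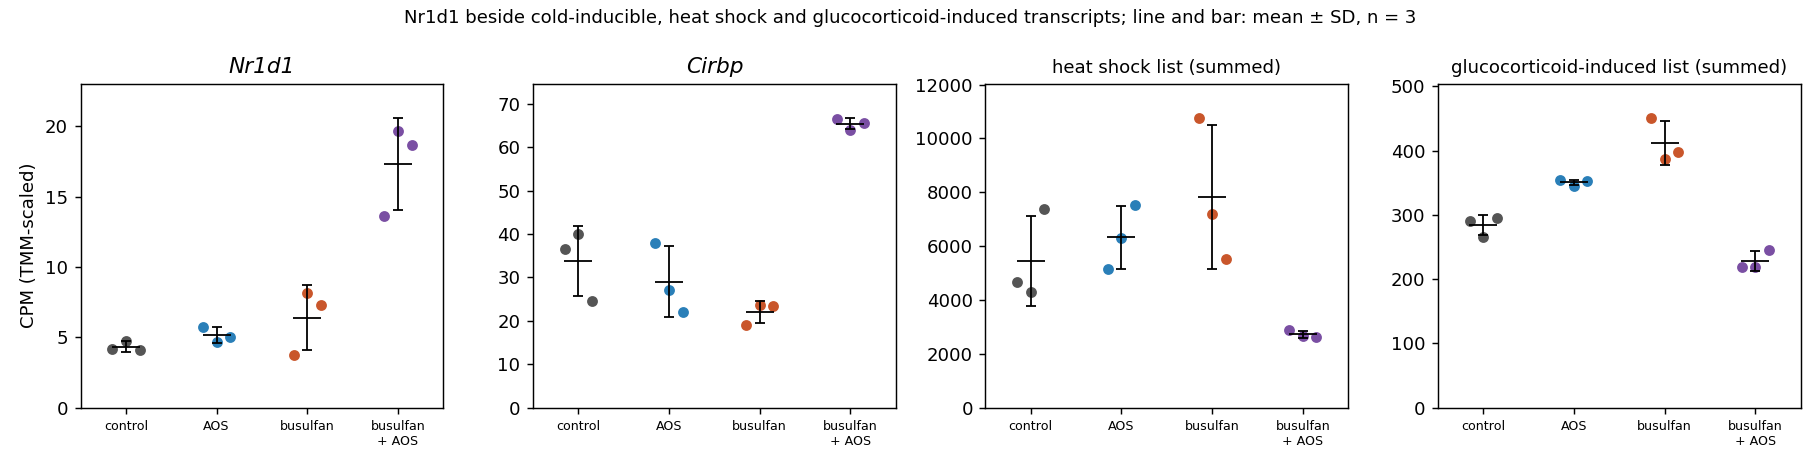
Levels of Nr1d1 and Cirbp beside the summed heat shock and glucocorticoid-induced lists, in CPM (y axes), by treatment group (x axes). Points are libraries, with the mean and SD of 3 libraries. After busulfan with AOS, the heat shock sum of 2612 to 2883 CPM is below the other 9 libraries while Nr1d1 and Cirbp are above them.

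Exons of 5 of the 10 clock genes overlap a gene on the opposite strand in GENCODE M21, and no source used here says whether the counting used strand. Nr1d1 shares 263 bases with Thra, a thyroid hormone receptor, and Dbp shares 539 bases with Sphk2, a sphingosine kinase. Thra stood at 19.4 ± 1.86 CPM in controls, 17.5 ± 2.35 with AOS, 19.8 ± 1.69 with busulfan and 17.6 ± 0.59 CPM with both, and Sphk2 at 37.9 ± 1.44, 43.0 ± 2.33, 41.8 ± 6.91 and 35.9 ± 1.05 CPM. Neither was called in any comparison. With both agents, Thra lay below all busulfan and all control libraries (log2 fold change -0.17 and -0.14, edgeR adjusted p = 0.414 and 0.543) and overlapped the AOS group. Sphk2 lay below all AOS libraries there (-0.26, edgeR adjusted p = 0.137) and overlapped the busulfan and control groups. Whether reads on the shared bases were counted for the wrong neighbour was not tested. Bhlhe41 shares 855 bases with Gm43909, Tef 193 bases with Gm17597 and Arntl 33 bases with Gm45355. The deposited counts of Nr1d1, Dbp, Per3 and Bhlhe41 were fractional in all 12 libraries, and those of Tef in 5.

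Across the 12 libraries, the genes whose log CPM was most like that of Nr1d1 among 11200 genes outside the lists were Ankrd49 (Pearson r = 0.953), Prdm1, the plasma cell regulator BLIMP1 (0.953), Slc25a36 (0.941), Tbl3 (0.928) and 1110004F10Rik (0.923). Prdm1 rose from 10.1 ± 0.82 CPM with AOS to 16.6 ± 0.67 CPM with both agents (log2 fold change 0.72, edgeR adjusted p = 0.0122). The most opposite were Nufip2 (r = -0.961), the hydroxylase gene Jmjd6 (-0.955) and Tent5a (-0.954), and Jmjd6 fell from 71.9 ± 5.46 to 41.3 ± 3.49 CPM between those groups (-0.80, edgeR adjusted p = 0.0156). The Prdm1 call ended without library 2 of the group given both agents (edgeR adjusted p = 0.0582, in a range of 9.5e-06 to 0.0582) and without control library 1 and AOS library 2 together (0.0559). The Jmjd6 call ended without library 2 of the group given both agents (edgeR adjusted p = 0.0817), without AOS library 1 (0.0541) and without control library 1 and AOS library 2 together (0.0647), in a range of 9.2e-06 to 0.0817. Most like Arntl were Sipa1 (0.965), Stk17b (0.934), Zfp691 (0.931), Itprip (0.928) and Zmym6 (0.924). These correlations hold the differences between the 4 groups as well as those within them, and are given as a description. Prdm1 and Jmjd6 were picked by their likeness to Nr1d1 in these same libraries. Their p-values between groups in which Nr1d1 differed are therefore no separate evidence, and belong to that description.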

How the data were processed

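Total RNA of mouse spleen was sequenced in 12 libraries. The deposited table holds expected counts per gene, named read counts by the authors, of which 75.7% are whole numbers, and a deposited value that was taken to be the authors' FPKM, since the ratio of count to value followed the library totals within 0.338% over 1227 genes. Per the submitters' processing notes, reads were placed on mm10. For the aligner, counting program, annotation and strandedness, the entry is: not given in the sources used here. A further 8 columns of group averages were not used. Rows with a BGIG identifier (1014 of 19376, 2.72% to 3.13% of counts) stayed in the library totals and the tests and are not named. Libraries labelled SBA0 were taken as busulfan alone, a group that the design text writes as B0.

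Rounded expected counts went into edgeR 4.0.16 (R 4.3.3) with TMM scaling and the filterByExpr filter, which left 15079 genes. A single glmQLFit model of group means covered the 12 libraries, with 8 residual degrees of freedom. Two-sided glmQLFTest contrasts were adjusted by the Benjamini-Hochberg method across the 15079 genes, with 0.05 as the threshold for a call. SE was taken as |log2 fold change| over the root of F. Levels are CPM on TMM-scaled sizes. P-values measure the spread between libraries, which may be technical, and limits from counts cover counting error only. No library was a copy of another in its group, since chi-square per degree of freedom between replicates was 15.9 to 72.7. Libraries of different groups were not compared in this way.

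Alternatives were DESeq2 1.42.0, limma 3.58.1 on log2(FPKM + 0.1) and log2(FPKM + 1), other scalings and filters, a replicate block, fits of only the groups compared, and leaving out libraries. The clock genes and the lists beside them were chosen with earlier results of these data known. By rule, the text names all 10 clock genes, every other clock gene called in a comparison, per clock list the 3 genes of smallest p in busulfan with AOS against AOS, the genes most like Nr1d1 (5 highest, 3 lowest r) and Arntl (5 highest) with a mean of at least 5 CPM, and Cirbp, Rbm3, Hsph1, Dnajb1, Tsc22d3 and Fkbp5. A gene that meets this rule is not reported here. The model was tested on simulated counts first. Promoters and coordinates come from RefSeq on GRCm38.p6, the assembly behind mm10. Python 3.11.15, numpy 2.4.6, pandas 2.3.3 and matplotlib 3.10.9 were used.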

Additional observations from a re-analysis of the deposited data

Results flagged for a closer look

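The response to busulfan was compared between mice with and without AOS, and 4 clock genes were listed. The test of the difference called 0.484% of all genes. For Per1 the log2 fold change with busulfan was lower by 1.37 in mice given AOS (difference -1.37, edgeR adjusted p = 0.0156), and for Bhlhe41 it was higher (difference 0.97, edgeR adjusted p = 0.0149); both passed the test of the difference itself. For Dbp (difference 1.72, edgeR adjusted p = 0.0639) and Nr1d2 (difference 0.80, edgeR adjusted p = 0.0657) the difference did not pass, and they are listed because every busulfan library lay below every control while every library given both agents lay above every AOS library. Of all genes, 23.6% did not overlap in busulfan against control and 31.7% in busulfan with AOS against AOS. The share of all genes apart in opposite directions was not counted.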

How the results depend on the processing

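No value of a clock gene that was called changed sign under an alternative. Of 1730 values of a clock gene in a comparison under an alternative, 1571 kept their sign and side of the threshold, 54 that were called in neither analysis had another sign, 25 crossed into a call and 80 lost one. DESeq2 called 3 clock genes in busulfan against control (beside 6.12% of all genes), 7 in busulfan with AOS against AOS (11.8%), 1 in AOS against control (0.464%), 5 for busulfan averaged over AOS (15.8%), 2 for AOS averaged over busulfan (1.53%) and 7 for the interaction (4.17%). Scaling by library totals gave 2 in busulfan against control (0.915% of all genes). Limma on log2 FPKM gave 0 there at both pseudocounts (0.0928% of all genes at the lower and 0.119% at the higher). It gave 1 for busulfan averaged over AOS at both (5.95% and 5.86%). Fits of only the groups compared gave 0 in busulfan against control (0% of all genes), 1 in busulfan with AOS against busulfan (0.59%) and 0 in busulfan with AOS against control (0.00684%). Without control library 1 and AOS library 2 together the counts were 0 in busulfan against control (0% of all genes), 1 in busulfan with AOS against AOS (0.329%) and 0 in busulfan with AOS against control (0%). They were 0 for busulfan averaged over AOS (0.0592%) and 0 for the interaction (0.0461%). Leaving out 1 library gave 0 to 3 clock genes in busulfan against control (0% to 3.08% of all genes) and 1 to 6 in busulfan with AOS against AOS (0.183% to 5.98%). It gave 1 to 5 in busulfan with AOS against busulfan (0.295% to 3.48%) and 0 to 1 in busulfan with AOS against control (0.0197% to 1.13%). It gave 1 to 3 for busulfan averaged over AOS (0.543% to 13.5%) and 0 to 3 for the interaction (0.0524% to 0.72%). In every case it gave 0 for AOS against control and for AOS averaged over busulfan (at most 0.0131% and 0.0262%). The cause was not tested. Same-numbered libraries deviated together weakly at most (18 pairs, r from -0.075 to 0.273, 13 of them under 0.1, and 5 of 12 libraries correlated best with their own number). The mean r was 0.057 for these pairs and -0.028 for pairs with different numbers. Such values cannot decide whether the numbers pair the libraries. With the replicate number as a block, 0 clock genes were called in busulfan against control (Per1 at edgeR adjusted p = 0.0554), beside 0.0663% of all genes. The block gave 4 in busulfan with AOS against AOS (5.95%), 5 in busulfan with AOS against busulfan (2.41%) and 1 in busulfan with AOS against control (0.657%). It gave 2 for busulfan averaged over AOS (8.57%) and 2 for the interaction (0.219%). Scaling by library totals moved the median log2 fold change of all genes by less than 0.1, but the share of called genes that were higher went from 40.6% to 57.3% in busulfan with AOS against AOS, from 28.2% to 17.4% in busulfan against control, from 29.5% to 17.8% in busulfan with AOS against control and from 49.3% to 73.4% in the interaction. Over all genes, DESeq2 called 923 in busulfan against control where edgeR called 71, 1773 against 876 in busulfan with AOS against AOS, 1157 against 456 in busulfan with AOS against busulfan, 760 against 132 in busulfan with AOS against control, 2375 against 1241 for busulfan averaged over AOS and 629 against 73 for the interaction. Without 1 library, edgeR called 0 to 470, 28 to 913 and 45 to 531 in the first 3 of these comparisons. Of the genes with the fewest counts, Nr1d1 had 59.2 to 308 counts per library and Dbp 56.0 to 214.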
